A study of Mus musculus with 8 samples.

Results

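Messenger RNA for amino acid synthesis, amino acid transport and tRNA charging was examined in ASZ001 cells, a mouse basal cell carcinoma line. The 44 genes were taken by symbol from a list that was chosen with earlier results of these data known. All were found among the 24883 gene entries used: 13 enzymes, 9 transporters, 20 cytosolic aminoacyl-tRNA synthetases, and the genes Eif4ebp1 and Vldlr. Of the 44 genes, 43 had enough counts to be tested. The exception was Bcat1, a branched-chain aminotransferase, which had between 0 and 5 counts in a library.

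The study had 8 libraries in 4 groups of 2, and all cells received doxycycline for 24 h. The first group carried a doxycycline-inducible empty vector, and its labels name no vehicle. The other 3 groups carried an inducible vector for c-Fos, which pairs with Jun proteins in the AP-1 factor, and were then given DMSO, 5 µM afatinib or 10 µM UO126 for 6 h. Afatinib inhibits the EGFR family of receptor kinases, and UO126 inhibits the MEK kinases that act downstream of them. The comparison of c-Fos cells in DMSO with the empty vector therefore holds the effect of any vehicle too. The labels leave unsaid if replicate libraries were grown as separate cultures and if the cells were a pool or 1 clone. P-values therefore reflect library-to-library spread, which may be technical.

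Cells take amino acids up through membrane carriers, make the non-essential ones from glycolytic and mitochondrial intermediates, and load them onto tRNA with synthetases that are each specific for an amino acid. When an amino acid runs short or another stress acts on translation initiation, the transcription factor ATF4 is made from its existing mRNA and raises many of these genes through sites at which it binds with C/EBP proteins. Asns, Slc7a11 and Trib3 are textbook targets of this response.

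Promoter sequences are shown first because many of these genes moved together with the inhibitors, and the core of the C/EBP-ATF site can be searched for directly. The core was written as TGATGNAA, which reads TTNCATCA on the other strand, and was searched on both strands in RefSeq promoter windows of 300 bases (assembly GRCm38.p6, 250 bases before to 50 after a start site). RefSeq windows matched 32 of the 44 genes. The core was present in 11 of these 32 genes (34.4%), against 4.13% of the 17492 protein-coding genes with a window and 3.97% of all 32851 windows. The list includes textbook targets of the ATF4 response, so this contrast follows in part from how the list was made. The 13 matches had the core in 2 spellings, 10 with C and 3 with A at the free base. Of these, 12 are printed below with 10 bases on either side, on the strand that reads the core forwards, and with the core in capitals.
Asns, chr6:7693215-7693242, minus strand: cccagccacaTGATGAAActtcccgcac
Pycr1, chr11:120643834-120643861, minus strand: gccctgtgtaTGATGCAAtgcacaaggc
Got1, chr19:43524690-43524717, plus strand: gaggcttgtaTGATGCAAccaatgcaat
Slc7a11, chr3:50443662-50443689, minus strand: ctcatgtggcTGATGCAAacctggagaa
Slc7a11, chr3:50443643-50443670, plus strand: ggctgcatgaTGATGCAAattctccagg
Slc1a4, chr11:20332700-20332727, plus strand: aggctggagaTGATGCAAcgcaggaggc
Aars, chr8:111033841-111033868, minus strand: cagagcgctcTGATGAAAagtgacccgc
Gars, chr6:55037961-55037988, minus strand: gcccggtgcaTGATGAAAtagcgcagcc
Yars, chr4:129189896-129189923, plus strand: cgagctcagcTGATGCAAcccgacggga
Iars, chr13:49682127-49682154, minus strand: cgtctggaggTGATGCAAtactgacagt
Tars, chr15:11399656-11399683, plus strand: gctaaccagcTGATGCAAcgggactcct
Vldlr, chr19:27216810-27216837, minus strand: ctaggagcgcTGATGCAActattgctgc
In 2 genes the window held 2 cores, and those of the cystine carrier gene Slc7a11 face each other. These are the 150 bases before its start site, with both cores in capitals.
Slc7a11, chr3:50443614-50443763, minus strand: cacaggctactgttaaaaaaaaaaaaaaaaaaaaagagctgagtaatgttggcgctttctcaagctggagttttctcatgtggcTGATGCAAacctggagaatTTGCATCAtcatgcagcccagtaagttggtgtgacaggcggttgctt
By role, the core was present in 3 of 12 enzymes, 2 of 6 transporters, 5 of 13 synthetases and Vldlr. A match describes these letters only. It is not evidence that a factor was bound or that a change came from it.

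The libraries held between 17901974 and 23126048 counts, and 12879 genes were tested. Levels are CPM, counts scaled by library size,, and comparisons between genes are per kilobase of the deposited gene length. The 8 keratinocyte markers together stood between 19986 and 24604 CPM in every library, lowest with afatinib. Summed fibroblast markers stood at 10.6 CPM or less and leukocyte markers at 9.39 CPM or less, with Lum, Thy1 and Tyrobp at 0 throughout. Endothelial markers summed to between 55.8 and 71.8 CPM and melanocyte markers to between 40.6 and 65.1 CPM, with Kdr and Tyr at 0. Other markers were present: 4 of 7 fibroblast, 2 of 6 leukocyte, 2 of 5 endothelial and 2 of 5 melanocyte markers had enough counts to be tested. With c-Fos 1 fibroblast marker was called higher (log2 fold change 2.91) and 1 lower (-1.82). In the same comparison 1 leukocyte marker was higher (3.18), and 1 endothelial and 1 melanocyte marker were lower. Of all tested genes 21.5% were higher and 20.7% lower there. Fos was higher in c-Fos cells in DMSO than with the empty vector (log2 fold change 4.65 ± 0.10, adjusted p = 2.61e-12), and it was lower with UO126 than with DMSO (log2 fold change -0.44 ± 0.08, adjusted p = 0.00148). The part of these shifts in the results below was not tested. Because whole cultures were sequenced, fewer cells of a kind and less RNA per cell cannot be told apart.

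In DMSO-treated c-Fos cells the 44 genes spanned a wide range of levels per length. Nars, which charges asparagine tRNA, was highest at 187 CPM per kb. It was followed by the neutral amino acid carrier gene Slc38a2 at 173, and by Kars, which charges lysine tRNA, and the asparagine synthetase gene Asns, both at 162. At the other end stood Slc7a11 at 3.36, the arginine carrier gene Slc7a3 at 0.51, the cystathionine synthase gene Cbs at 0.48 and Bcat1 at 0.01 CPM per kb. With afatinib Asns stood at 297 CPM per kb, Nars at 286 and Aars, which charges alanine tRNA, at 254.

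Most of these genes were higher with afatinib than with DMSO. A gene was called when the Benjamini-Hochberg adjusted p of edgeR's quasi-likelihood test over all genes was under 0.05. Of the 43 tested genes 28 were higher, 8 were lower and 7 were not called, where 21.2% of all tested genes were higher and 21.5% lower. Because the genes were chosen with earlier results of these data known, this contrast and those for the other comparisons are descriptions only. The median log2 fold change was 0.38, against 0.00 over all tested genes, and 8 genes were at least 2-fold higher. The 28 comprised 9 of 12 enzymes, 6 of 9 transporters, 11 of 20 synthetases, and both Eif4ebp1 and Vldlr. When each of the 8 libraries was left out in turn, 26 of the 28 higher calls and 5 of the 8 lower calls held every time. Got1 was no longer called without afatinib replicate 1 (adjusted p = 0.0515) or DMSO replicate 1 (0.0551), nor Slc7a1 without DMSO replicate 2 (0.0801). Of the lower calls, Cth ended without afatinib replicate 1 (0.131) or DMSO replicate 2 (0.252), Vars ended without afatinib replicate 2 (0.0929), and Slc1a5 ended in 6 of the fits (0.0611 to 0.276), in all but those without a UO126 library.

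**Figure D1:**
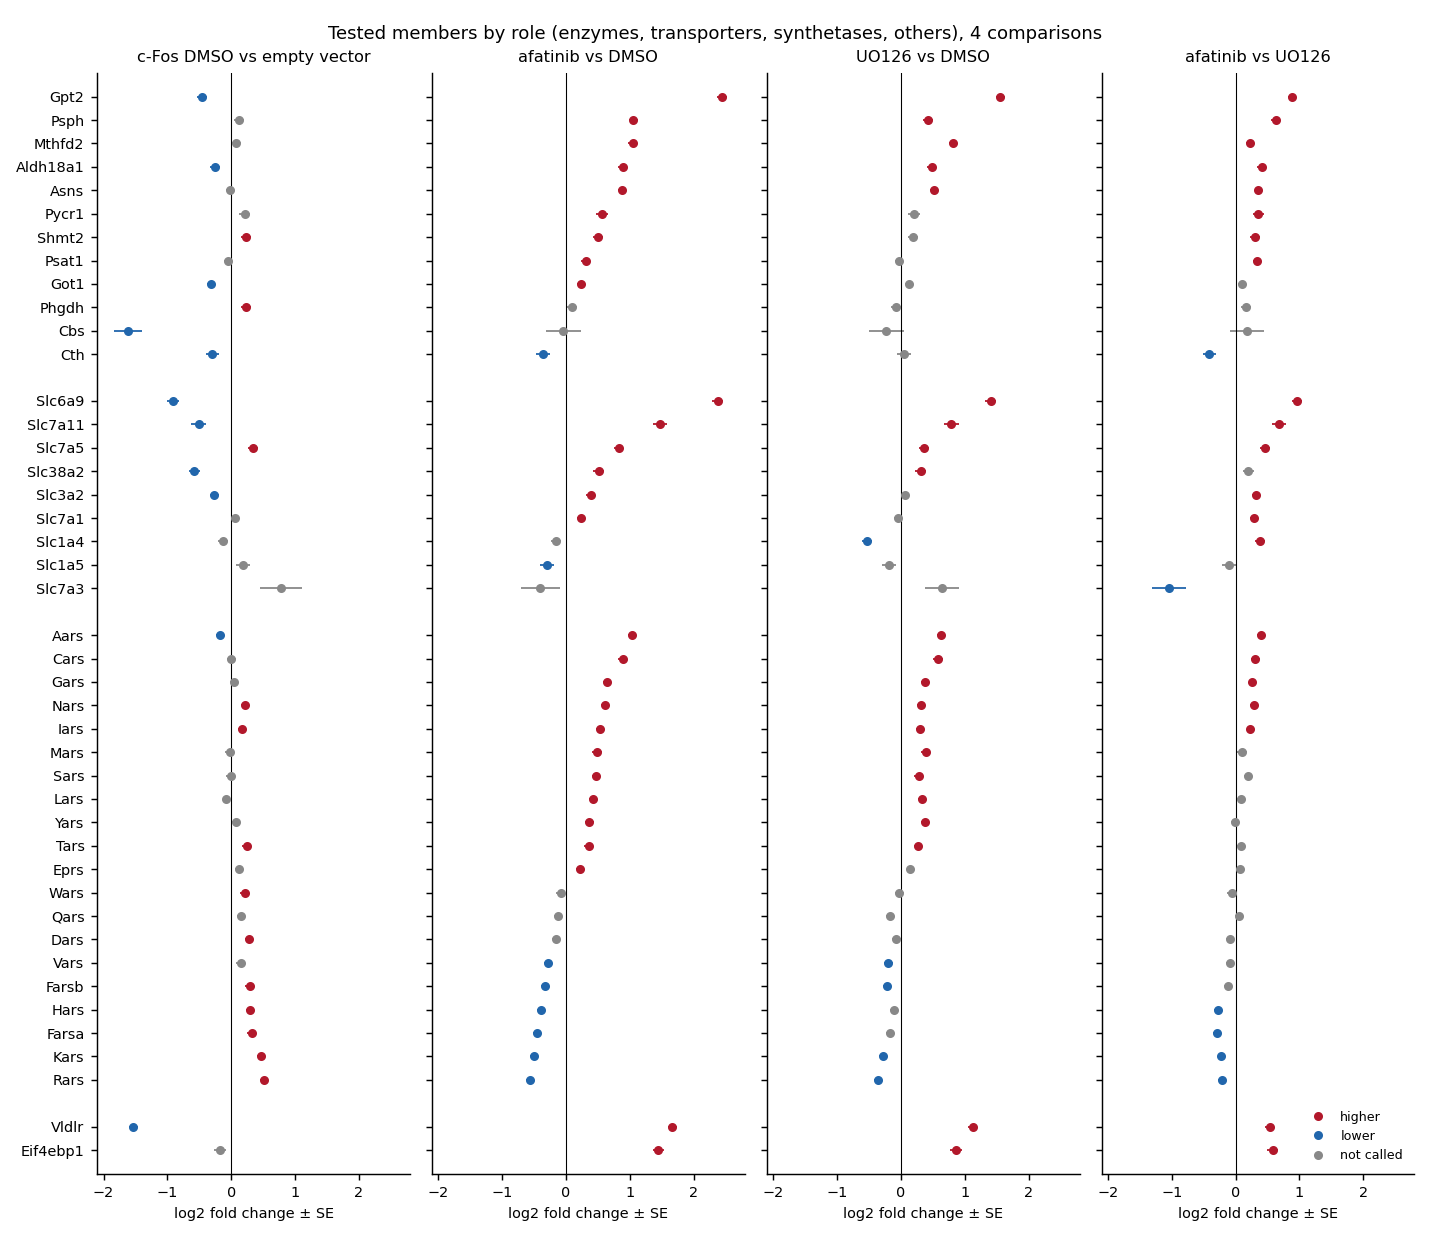
Each point is the log2 fold change of 1 of the 43 tested genes with its standard error, in 4 comparisons, grouped by role and coloured by the edgeR call. With afatinib 28 genes are higher and 8 lower. The lower synthetases, at the foot of their block, are on the right of 0 for c-Fos against the empty vector. Both comparisons use the same DMSO libraries.

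With UO126 fewer of them were called. Relative to the same DMSO libraries, 21 of 43 genes were higher and 5 lower, where 13.9% of all tested genes were higher and 14.7% lower. The median log2 fold change was 0.27, against -0.00 over all tested genes, and 3 genes were at least 2-fold higher. By role these were 5 higher of 12 enzymes with 0 lower (0 also at an unadjusted p under 0.05 and 0 by DESeq2), 4 higher and 1 lower of 9 transporters, 10 higher and 4 lower of 20 synthetases, and both other genes higher. Of the higher calls 18 held in all 8 fits without a library. Slc38a2 ended without DMSO replicate 2 (adjusted p = 0.119), and Sars (0.0695) and Tars (0.0808) ended without DMSO replicate 1. Of the lower calls Slc1a4 and Rars held in all 8. Kars ended without DMSO replicate 2 (0.0608), Farsb ended in 6 fits (0.0504 to 0.159) and Vars in 7 (0.0623 to 0.24), so that 2 lower calls were left without DMSO replicate 2 and 3 without DMSO replicate 1, either afatinib replicate or empty vector replicate 2. The afatinib and UO126 comparisons share their DMSO libraries, so the values below are given side by side. The comparison of c-Fos with the empty vector uses these DMSO libraries too, on the other side of the difference. A deviation of the DMSO libraries would therefore give opposite signs in it and in the inhibitor comparisons.

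The enzyme with the largest difference was Gpt2, the mitochondrial alanine aminotransferase that links alanine to pyruvate. Gpt2 stood at 34.3 and 34.8 CPM with the empty vector, 25.7 and 24.4 in DMSO, 142 and 131 in afatinib, 75.2 and 72.6 in UO126. No groups overlapped, and the afatinib libraries were the highest. Gpt2 was 5.43-fold higher with afatinib than with DMSO (log2 fold change 2.44 ± 0.07, adjusted p = 1.1e-10) and 2.95-fold higher with UO126 (log2 fold change 1.56 ± 0.07, adjusted p = 2.38e-08). It was also lower with c-Fos than with the empty vector (log2 fold change -0.46 ± 0.08, adjusted p = 0.000315), so that both inhibitor groups stood above the empty vector.

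Asparagine synthetase, encoded by Asns, makes asparagine from aspartate and glutamine. Asns stood at 313 and 314 CPM with the empty vector, 307 and 312 in DMSO, 589 and 546 in afatinib, 445 and 440.0 in UO126. The empty vector and DMSO libraries lay close together, and both inhibitor groups lay above them. Asns rose with afatinib (log2 fold change 0.87 ± 0.06, adjusted p = 1.12e-07) and with UO126 (log2 fold change 0.52 ± 0.06, adjusted p = 3.22e-05). With c-Fos it differed from the empty vector by -0.02 ± 0.06 (adjusted p = 0.843), which was not called.

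The serine pathway runs from Phgdh through Psat1 to Psph, and its 3 genes are given from the last step to the first. Psph, the phosphatase of the last step, stood at 47.5 and 45.9 CPM with the empty vector, 51.1 and 50.8 in DMSO, 112 and 99.7 in afatinib, 69.8 and 67.2 in UO126. The UO126 libraries lay between those of DMSO and afatinib, with no overlap. Psph rose with afatinib (log2 fold change 1.05 ± 0.07, adjusted p = 1.45e-07) and with UO126 (log2 fold change 0.43 ± 0.07, adjusted p = 0.000814). For Psat1, the aminotransferase of the middle step, the log2 fold change was 0.31 ± 0.07 with afatinib (adjusted p = 0.00189), and with UO126 it was -0.03 ± 0.07 and not called. Phgdh, the first enzyme, was not called with either inhibitor (log2 fold changes 0.09 ± 0.08 with afatinib and -0.07 ± 0.08 with UO126). In the GENCODE annotation, exons of Psph overlap Cct6a, those of Shmt2 overlap Ndufa4l2, those of Yars overlap C77080 and those of Farsb overlap Sgpp2, each on the opposite strand. The library kit does not mark strand, so reads from the shared bases cannot be told apart. Phgdh has a named pseudogene, Phgdh-ps1, with which the authors' counting could have shared reads.

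Serine is turned into one-carbon units in mitochondria by Shmt2 and Mthfd2. Mthfd2, a folate dehydrogenase, stood at 146 and 145 CPM with the empty vector, 149.7 and 158 in DMSO, 329 and 305 in afatinib, 281 and 261 in UO126. All inhibitor libraries were above all others. Mthfd2 rose with afatinib (log2 fold change 1.04 ± 0.07, adjusted p = 6.93e-08) and with UO126 (log2 fold change 0.82 ± 0.07, adjusted p = 1.52e-06), while Shmt2 rose with afatinib (log2 fold change 0.50 ± 0.08, adjusted p = 0.000236) and was not called with UO126 (0.19). Of the cytosolic counterparts, which are not among the 44 genes, Shmt1 was lower with afatinib (log2 fold change -0.96 ± 0.08, adjusted p = 6.7e-07) and with UO126 (log2 fold change -0.67 ± 0.08, adjusted p = 3.61e-05), and Mthfd1, named after its value was seen, was lower with afatinib (log2 fold change -0.31 ± 0.06, adjusted p = 0.00111) and not called with UO126 (-0.09 ± 0.06).

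Proline is made from glutamate by Aldh18a1 and then by a Pycr enzyme. Aldh18a1 stood at 153 and 156 CPM with the empty vector, 132 and 127 in DMSO, 253 and 227 in afatinib, 170.2 and 192 in UO126. Afatinib libraries were highest and DMSO libraries lowest, without overlap. Aldh18a1 rose with afatinib (log2 fold change 0.89 ± 0.07, adjusted p = 8.3e-07) and with UO126 (log2 fold change 0.48 ± 0.07, adjusted p = 0.00036). Pycr1, the mitochondrial reductase of the last step, rose with afatinib (log2 fold change 0.56 ± 0.09, adjusted p = 0.000183) and was not called with UO126 (0.21).

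In the branch that makes cysteine from methionine, neither gene was called higher with an inhibitor. Cbs, which condenses serine with homocysteine, was low, at 3.85 and 3.52 CPM with the empty vector, 1.31 and 1.08 in DMSO, 1.27 and 1.05 in afatinib, 0.982 and 1.06 in UO126. The empty vector libraries were the highest and the 3 c-Fos groups lay together. Cbs was lower with c-Fos (log2 fold change -1.62 ± 0.22, adjusted p = 6.66e-05) and was not called with afatinib (-0.05 ± 0.27) or UO126 (-0.23 ± 0.28). Cth, which cleaves cystathionine to cysteine, was lower with afatinib (log2 fold change -0.36 ± 0.11, adjusted p = 0.016), subject to the libraries named above, and was not called with UO126 (0.05 ± 0.10). The cytosolic aspartate aminotransferase gene Got1 was higher with afatinib by 0.23 ± 0.06 and was not called with UO126 (0.13 ± 0.06).

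**Figure D2:**
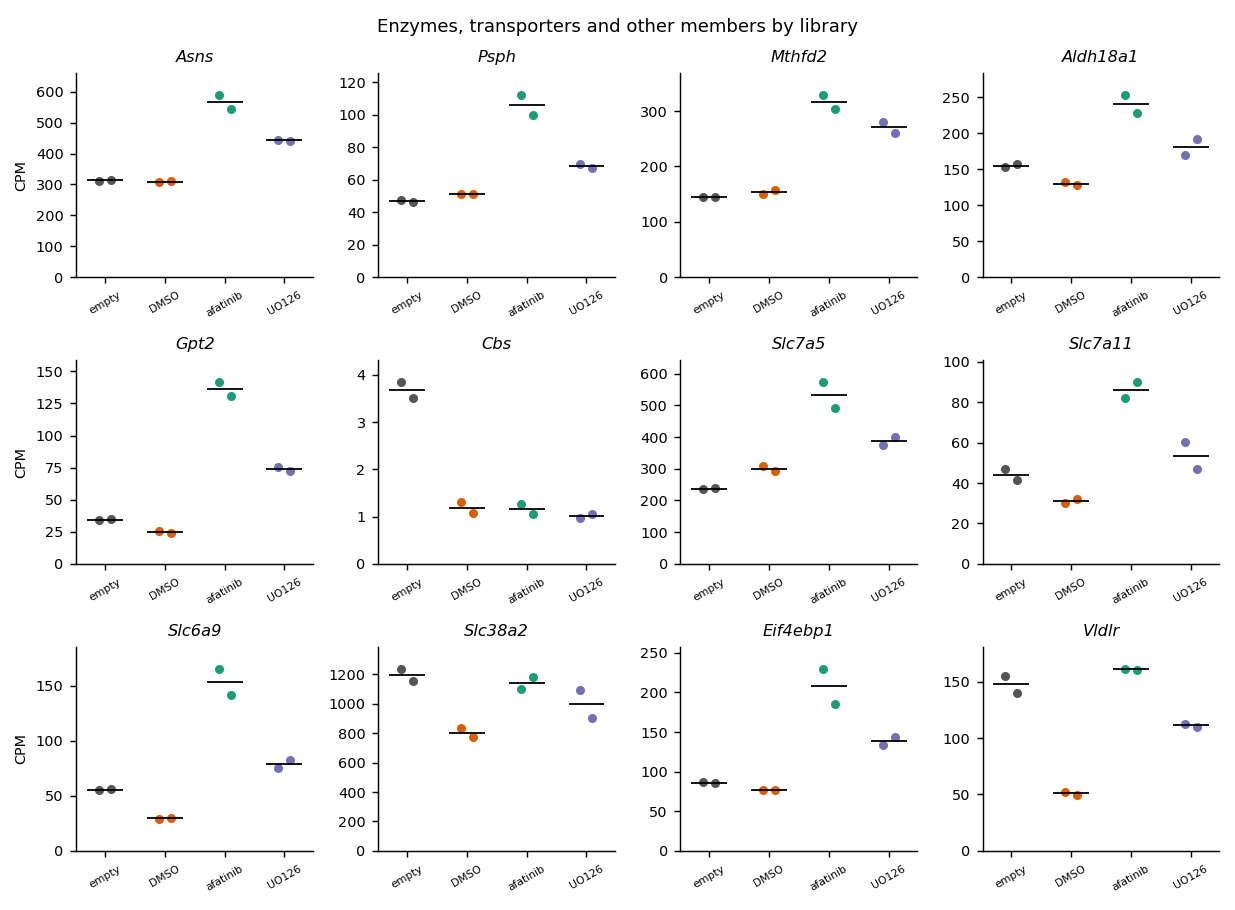
CPM of 12 genes in each of the 8 libraries, with a line at the mean of each group and axes starting at 0. Gpt2 and Slc6a9 are highest with afatinib, and for Vldlr and Slc38a2 the DMSO libraries are the lowest.

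Among transporters the largest rise was in Slc6a9, the glycine carrier GlyT1. Slc6a9 stood at 55.5 and 56.0 CPM with the empty vector, 29.4 and 29.9 in DMSO, 166 and 142 in afatinib, 75.3 and 82.3 in UO126. The DMSO libraries were lowest and the afatinib libraries highest, with no overlap between any groups. Slc6a9 was 5.19-fold higher with afatinib (log2 fold change 2.38 ± 0.09, adjusted p = 6.13e-10) and 2.66-fold higher with UO126 (log2 fold change 1.41 ± 0.09, adjusted p = 1.55e-07). It was lower with c-Fos than with the empty vector (log2 fold change -0.91 ± 0.09, adjusted p = 2.07e-06). Its exons overlap Ccdc24 and Gm17114 on the opposite strand.

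Cystine enters cells in exchange for glutamate through the product of Slc7a11, whose promoter stretch with 2 facing cores is printed above. Slc7a11 stood at 46.9 and 41.3 CPM with the empty vector, 30.04 and 31.9 in DMSO, 81.9 and 89.95 in afatinib, 60.3 and 46.7 in UO126. The DMSO libraries were the lowest and the afatinib libraries the highest, while the lower UO126 library lay just under the higher empty vector library. Slc7a11 rose with afatinib (log2 fold change 1.47 ± 0.12, adjusted p = 2.82e-06) and with UO126 (log2 fold change 0.79 ± 0.12, adjusted p = 0.00062). With c-Fos it was lower than with the empty vector (log2 fold change -0.51 ± 0.12, adjusted p = 0.00554), a call that ended without DMSO replicate 1 (0.0633) or empty vector replicate 1 (0.0632).

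Slc7a5, the light chain of the leucine carrier LAT1, shares its heavy chain Slc3a2 with Slc7a11. Slc7a5 stood at 235 and 240.3 CPM with the empty vector, 308 and 292 in DMSO, 574 and 491 in afatinib, 375 and 399 in UO126. The order was empty vector, DMSO, UO126 and afatinib, with no overlap. It was higher with c-Fos (log2 fold change 0.34 ± 0.07, adjusted p = 0.00251), with afatinib (log2 fold change 0.83 ± 0.07, adjusted p = 1.54e-06) and with UO126 (log2 fold change 0.36 ± 0.07, adjusted p = 0.00251). Slc3a2 rose with afatinib (log2 fold change 0.38 ± 0.06, adjusted p = 0.000327), was not called with UO126 (0.07) and was lower with c-Fos (log2 fold change -0.26 ± 0.06, adjusted p = 0.00507).

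Slc38a2 encodes SNAT2, a sodium-coupled carrier of small neutral amino acids. Slc38a2 stood at 1238 and 1154 CPM with the empty vector, 833 and 772 in DMSO, 1100.2 and 1185 in afatinib, 1093 and 903 in UO126. Only the DMSO libraries lay apart, below all 6 others. Slc38a2 fell with c-Fos (log2 fold change -0.58 ± 0.09, adjusted p = 0.000205), and it was higher than DMSO with afatinib (log2 fold change 0.51 ± 0.09, adjusted p = 0.000491) and with UO126 (log2 fold change 0.31 ± 0.09, adjusted p = 0.0163), the last call ending without DMSO replicate 2.

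The other 4 carriers are given together. Slc7a1, a carrier of cationic amino acids, was higher with afatinib by 0.23 ± 0.06 and was not called with UO126 (-0.05 ± 0.06). The neutral amino acid exchanger Slc1a4 was lower with UO126 (log2 fold change -0.53 ± 0.08, adjusted p = 0.000323) and not called with afatinib (-0.15 ± 0.08). The core in its window lies at the start site. Slc1a5, the glutamine exchanger ASCT2, was lower with afatinib (log2 fold change -0.30 ± 0.11, adjusted p = 0.0395) in the fit to all libraries and not called with UO126 (-0.19 ± 0.11). Slc7a3 was sparse, at 0.693 and 0.728 CPM with the empty vector, 1.47 and 0.966 in DMSO, 0.949 and 0.871 in afatinib, 1.81 and 2.03 in UO126, and was not called with afatinib (-0.41 ± 0.31) or UO126 (0.64 ± 0.27) against DMSO.

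The 20 cytosolic synthetases divided into genes that rose and genes that fell with afatinib. Those that rose were Aars, Cars, Gars, Nars, Iars, Mars, Sars, Lars, Yars, Tars and Eprs, with log2 fold changes from 0.22 for Eprs to 1.03 for Aars. Those that fell were Rars, Kars, Farsa, Hars, Farsb and Vars, from -0.56 for Rars to -0.28 for Vars. Dars, Qars and Wars, for aspartate, glutamine and tryptophan, were not called, with log2 fold changes between -0.16 and -0.08. The core was present in the windows of Aars, Gars, Yars, Iars and Tars, which is 5 of the 8 risers with a RefSeq window. It was in 0 of 3 fallers and 0 of 2 uncalled synthetases with one, where 4.13% of protein-coding genes with a window held it. At that share 0 is the likely count, so sets this small cannot show a split between risers and fallers. The fallers Rars, Hars and Vars had no window. The genes were divided by their afatinib calls, so this is a description without a test. Over all roles, the core was in 10 of 23 genes with a window that rose with afatinib and 1 of 5 uncalled. It was in 0 of 3 that fell, which are the same synthetases. The windows of Gpt2 and Slc6a9, which rose most, did not hold it, nor did those of Psph, Mthfd2 and Aldh18a1.

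Aars, which charges alanine tRNA, stood at 523 and 512 CPM with the empty vector, 467 and 452 in DMSO, 984 and 892 in afatinib, 702 and 723 in UO126. Each inhibitor group lay above all empty vector and DMSO libraries, and afatinib lay above UO126. Aars rose with afatinib (log2 fold change 1.03 ± 0.06, adjusted p = 4.51e-08) and with UO126 (log2 fold change 0.63 ± 0.06, adjusted p = 9.11e-06). The cysteine enzyme Cars stood at 66.5 and 70.4 CPM with the empty vector, 65.6 and 71.6 in DMSO, 133 and 121 in afatinib, 103 and 103 in UO126. It too showed no overlap between the inhibitor groups and the others, with rises of 0.89 ± 0.07 for afatinib (adjusted p = 6.66e-07) and 0.58 ± 0.07 for UO126 (adjusted p = 6.92e-05). Exons of Aars overlap Exosc6 on the same strand, which could add reads to either gene.

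Gars, for glycine, stood at 343 and 349 CPM with the empty vector, 352 and 364 in DMSO, 585 and 537 in afatinib, 459.7 and 475 in UO126. Nars, for asparagine, stood at 420.0 and 429 CPM with the empty vector, 488 and 498 in DMSO, 765 and 739 in afatinib, 639 and 591 in UO126. In both genes every afatinib library was above every DMSO library. Gars rose by 0.65 ± 0.06 with afatinib and 0.38 ± 0.06 with UO126, and Nars by 0.61 ± 0.06 and 0.32 ± 0.06. Sars, Mars, Lars, Yars, Iars and Tars rose by 0.35 to 0.53 with afatinib and by 0.27 to 0.39 with UO126. Mars overlaps the stress gene Ddit3 on the opposite strand, and Ddit3 rose more (0.99 ± 0.07 with afatinib), so reads from the bases they share cannot be assigned to either. Eprs, the joint glutamate and proline enzyme, rose by 0.22 ± 0.06 with afatinib (adjusted p = 0.00696) and was not called with UO126 (0.15).

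Rars, which charges arginine tRNA, stood at 173 and 181 CPM with the empty vector, 242 and 264 in DMSO, 173 and 169.9 in afatinib, 202 and 195 in UO126. Its DMSO libraries were the highest, and the afatinib libraries lay just below those of the empty vector. Rars was higher with c-Fos (log2 fold change 0.52 ± 0.06, adjusted p = 2.48e-05) and lower with afatinib (log2 fold change -0.56 ± 0.06, adjusted p = 1.18e-05) and with UO126 (log2 fold change -0.35 ± 0.06, adjusted p = 0.00107). Kars, for lysine, stood at 254 and 262 CPM with the empty vector, 352 and 362 in DMSO, 260.3 and 245 in afatinib, 288 and 302 in UO126. The DMSO libraries were again above all 6 others. Kars was higher with c-Fos (log2 fold change 0.47 ± 0.06, adjusted p = 3.57e-05), lower with afatinib (log2 fold change -0.50 ± 0.06, adjusted p = 2.15e-05) and, with the exception named above, lower with UO126 (log2 fold change -0.27 ± 0.06, adjusted p = 0.00402). A named pseudogene of Kars exists in the annotation, Kars-ps1, with which the authors' counting could have shared reads.

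Phenylalanine tRNA is charged by an enzyme with an alpha chain from Farsa and a beta chain from Farsb. Farsa stood at 84.4 and 82.8 CPM with the empty vector, 102 and 106 in DMSO, 74.8 and 77.4 in afatinib, 91.8 and 94.5 in UO126, and Farsb stood at 73.7 and 78.1 CPM with the empty vector, 92.1 and 93.1 in DMSO, 74.4 and 72.7 in afatinib, 81.9 and 77.9 in UO126. In each gene both DMSO libraries were above both afatinib libraries. With c-Fos the log2 fold changes were 0.32 ± 0.06 and 0.29 ± 0.07, and with afatinib they were -0.45 ± 0.06 (adjusted p = 7.52e-05) and -0.33 ± 0.07 (adjusted p = 0.00111). With UO126 Farsa was not called (log2 fold change -0.16 ± 0.06, adjusted p = 0.0696), and Farsb was lower (log2 fold change -0.21 ± 0.07, adjusted p = 0.0256) with the exceptions named above. The difference between the chains was not tested. Hars, for histidine, was higher with c-Fos by 0.29 ± 0.06 and lower with afatinib (log2 fold change -0.39 ± 0.06, adjusted p = 0.000228). With UO126 it was not called (-0.11), nor was Dars (-0.07). Its exons overlap Hars2 on the opposite strand. Vars, for valine, had log2 fold changes of -0.28 ± 0.07 with afatinib and -0.20 ± 0.07 with UO126.

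**Figure D3:**
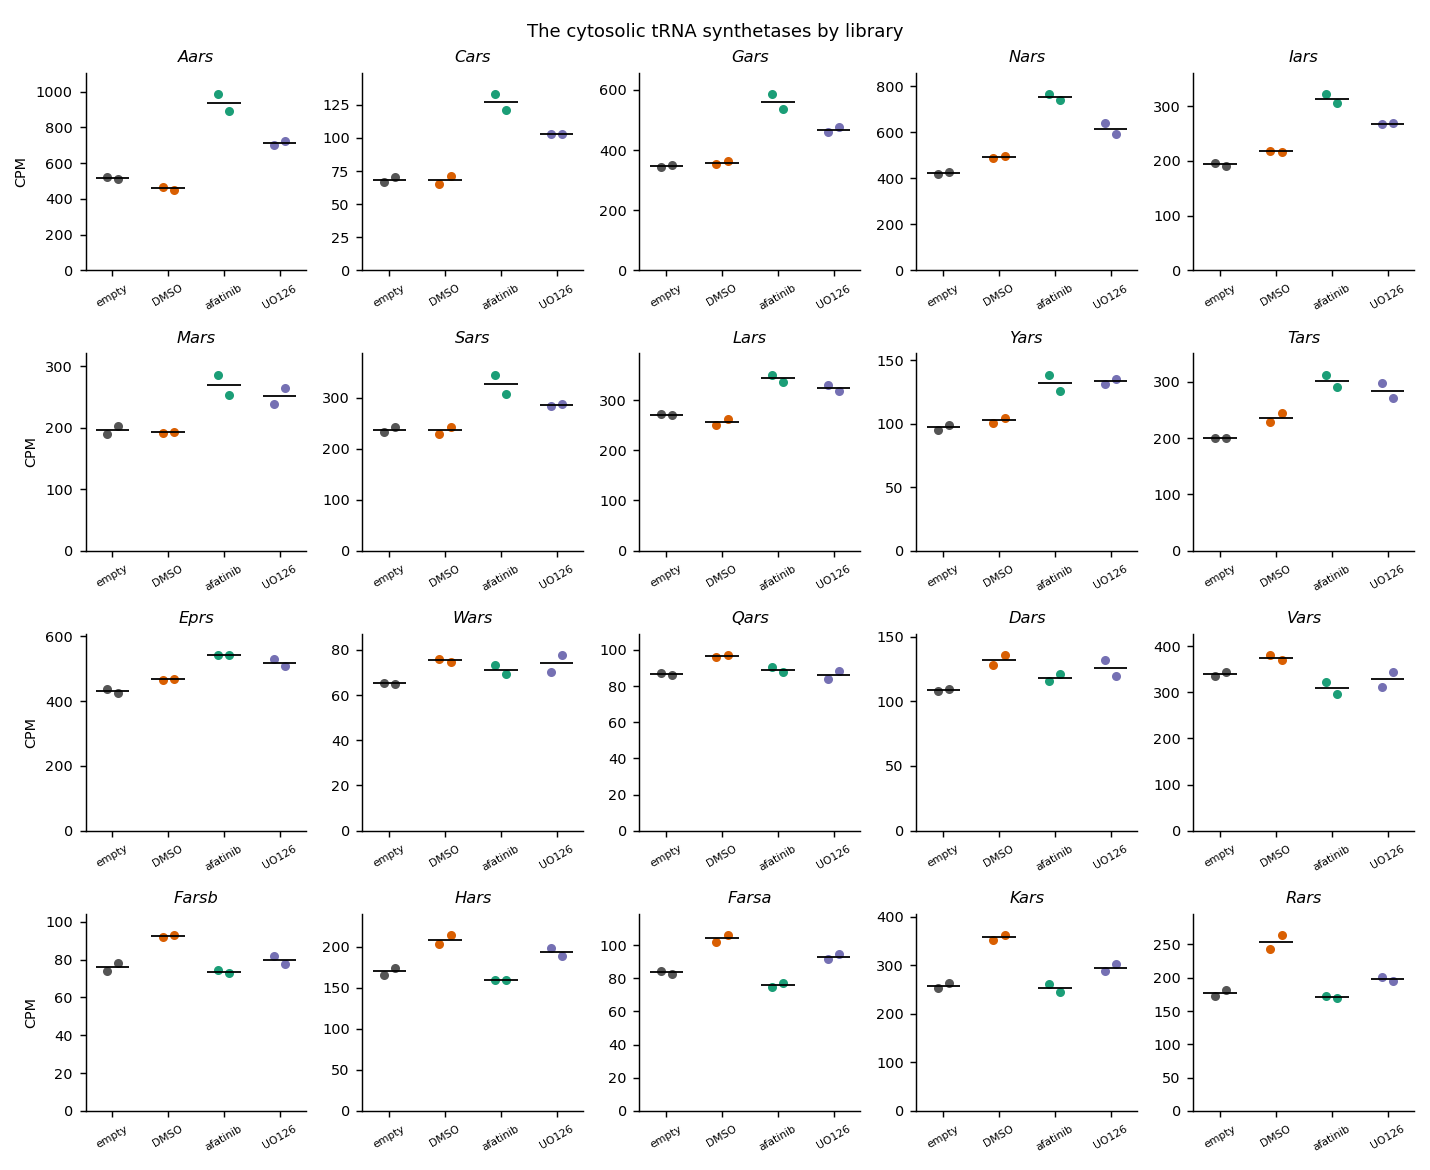
CPM of the 20 cytosolic synthetases in each of the 8 libraries, ordered by their log2 fold change with afatinib against DMSO, with group means as lines and axes from 0. In Rars and Kars, the last 2 panels, the DMSO libraries are the highest, and in Aars and Cars, the first 2, the afatinib libraries are.

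Some mammalian synthetases are bound in a multisynthetase complex, and its subunits went both ways with afatinib. Of its enzymes, Iars, Lars, Mars and Eprs rose, Rars and Kars fell, and Qars and Dars were not called. The 3 scaffold genes Aimp1, Aimp2 and Eef1e1 were all lower with afatinib and all higher with c-Fos, by edgeR's test. Of all tested genes, 21.5% were lower with afatinib and 21.5% higher with c-Fos. Both comparisons use the same DMSO libraries, so their opposite signs are not independent. Aimp1 had a log2 fold change of 0.30 ± 0.06 with c-Fos and -0.32 ± 0.06 with afatinib, and its lower value with UO126 (-0.19) was no longer called in any of the 8 fits without a library (adjusted p = 0.0545 to 0.195). Aimp2 had a log2 fold change of 0.70 ± 0.08 with c-Fos (adjusted p = 6.48e-06), -0.87 ± 0.08 with afatinib (adjusted p = 1.21e-06) and -0.35 ± 0.07 with UO126 (adjusted p = 0.00321). Eef1e1 was higher with c-Fos by 0.57 ± 0.13, a call that ended without empty vector replicate 2 (adjusted p = 0.0515), and lower with afatinib by a log2 fold change of -0.77 ± 0.13. Of 17 synthetases for mitochondrial tRNA, 0 were higher and 7 lower with afatinib by edgeR's test, where 21.2% of all tested genes were higher and 21.5% lower (0 were higher at an unadjusted p under 0.05 and 0 by DESeq2). With UO126, where these shares were 13.9% and 14.7%, 1 was higher and 1 lower: Sars2 (0.30), whose call ended without either DMSO replicate, either empty vector replicate or UO126 replicate 2 (adjusted p = 0.0502 to 0.148), and Yars2 (-0.31), whose call ended without DMSO replicate 2 (0.079). The lower calls with afatinib were on Ears2 (-0.82 ± 0.10), Nars2 (-0.58 ± 0.12), Tars2 (-0.56 ± 0.08), Yars2 (-0.45 ± 0.08), Vars2 (-0.39 ± 0.09), Rars2 (-0.38 ± 0.08) and Hars2 (-0.21 ± 0.07). The call on Vars2 ended without afatinib replicate 2 (adjusted p = 0.0781) or DMSO replicate 1 (0.0572), and that on Hars2 ended without either afatinib, DMSO or empty vector replicate (0.051 to 0.234). Of the cytosolic genes for the same amino acids, Nars, Tars, Yars and Eprs rose in that comparison, and Vars, Rars and Hars fell. With c-Fos, 2 of the 17 were higher and 3 lower, near or below the shares over all tested genes of 21.5% and 20.7%. Among them Yars2 was higher (0.38 ± 0.07), and Mars2 (-0.46 ± 0.10) and Wars2 (-0.44 ± 0.13) were lower. The calls on Mars2 and Wars2 ended without empty vector replicate 1 (0.0504 and 0.0681), and that on Wars2 also without DMSO replicate 2 (0.14) or empty vector replicate 2 (0.0692).

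Eif4ebp1 encodes 4E-BP1, which holds back cap-dependent translation when it is not phosphorylated. Eif4ebp1 stood at 86.4 and 86.1 CPM with the empty vector, 76.3 and 76.3 in DMSO, 229.9 and 186 in afatinib, 134 and 144 in UO126. All inhibitor libraries lay above all others. It rose with afatinib (log2 fold change 1.45 ± 0.09, adjusted p = 8.33e-08) and with UO126 (log2 fold change 0.86 ± 0.09, adjusted p = 1.93e-05). Vldlr, a lipoprotein receptor, stood at 155 and 140.0 CPM with the empty vector, 52.1 and 49.6 in DMSO, 161 and 160.5 in afatinib, 112 and 110.1 in UO126. DMSO libraries were the lowest by a wide margin, and afatinib libraries stood slightly above those of the empty vector. Vldlr fell with c-Fos (log2 fold change -1.54 ± 0.07, adjusted p = 1.7e-09) and was higher than DMSO with afatinib (log2 fold change 1.66 ± 0.07, adjusted p = 2.06e-09) and UO126 (log2 fold change 1.13 ± 0.07, adjusted p = 1.77e-07).

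Against the empty vector, c-Fos in DMSO raised 13 of the 43 genes and lowered 11, where 21.5% of all tested genes were higher and 20.7% lower. The median log2 fold change was 0.07, against -0.01 over all tested genes. By role, synthetases were 10 higher and 1 lower of 20. Enzymes were 2 higher and 5 lower of 12, and transporters 1 higher and 4 lower of 9. The difference between roles was not tested, and the count of 2 enzymes higher lies near the share over all tested genes. The higher calls on the transporter Slc7a5 and the synthetases Rars, Kars, Hars, Farsa and Farsb held in all 8 fits without a library. So did the lower calls on the enzymes Cbs, Gpt2 and Got1, the transporters Slc3a2, Slc6a9 and Slc38a2, and Vldlr. The other 11 ended in at least 1 fit, at adjusted p from 0.0525 to 0.376, and each of the 4 compared libraries ended some of them. The higher count was 7 without DMSO replicate 2 and 8 without either empty vector replicate, and the lower count was 7 without DMSO replicate 1 or empty vector replicate 1. Calls that ended in all 4 such fits were those on Phgdh, Aldh18a1, Aars, Wars and Iars. The median over synthetases was 0.16, over enzymes -0.03 and over transporters -0.13.

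Among enzymes in the fit to all libraries, Got1 was lower with c-Fos by a log2 fold change of -0.31 ± 0.06, Cth by -0.29 ± 0.10 and Aldh18a1 by -0.25 ± 0.07, while Phgdh (0.23 ± 0.08) and Shmt2 (0.23 ± 0.08) were higher. Psat1 (-0.05 ± 0.07) and Mthfd2 (0.08 ± 0.07) were not called, nor was Psph (0.13 ± 0.08). Among transporters Slc7a1 (0.05 ± 0.06), Slc1a4 (-0.13 ± 0.08) and Slc1a5 (0.19 ± 0.11) were not called. For synthetases, Dars (0.28 ± 0.07), Tars (0.24 ± 0.07), Nars (0.22 ± 0.06), Wars (0.21 ± 0.07) and Iars (0.17 ± 0.06) were higher and Aars (-0.17 ± 0.06) was lower, all among the calls that ended without a library. Gars (0.05 ± 0.06), Eprs (0.12 ± 0.06) and Vars (0.15 ± 0.07) were not called, nor was Eif4ebp1 (-0.18 ± 0.09).

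Afatinib and UO126 were also compared directly, although their doses differed and each was used at 1 dose, so the difference is between these treatments as given. Of the 43 genes 21 were higher with afatinib and 6 lower, where 7.14% of all tested genes were higher and 7.14% lower. The median log2 fold change was 0.19, against -0.00 over all tested genes. Enzymes were 8 higher and 1 lower, transporters 6 higher and 1 lower, synthetases 5 higher and 4 lower, and the other genes 2 higher. The largest of the higher calls were on Slc6a9 (log2 fold change 0.97 ± 0.08, adjusted p = 6.31e-06), Gpt2 (log2 fold change 0.88 ± 0.07, adjusted p = 4.12e-06), Slc7a11 (log2 fold change 0.68 ± 0.11, adjusted p = 0.00251), Psph (log2 fold change 0.63 ± 0.07, adjusted p = 9.43e-05) and Eif4ebp1 (log2 fold change 0.58 ± 0.09, adjusted p = 0.000813). Asns, Psat1, Aldh18a1, Slc7a5, Aars and Vldlr were also higher in all 8 fits without a library, by 0.34 for Psat1, 0.36 for Asns, 0.40 for Aars, 0.41 for Aldh18a1, 0.46 for Slc7a5 and 0.53 for Vldlr. Without afatinib replicate 1 the higher count was 11. The calls that then ended were those on Shmt2, Mthfd2, Pycr1, Slc7a1, Slc3a2, Slc1a4, Gars, Nars, Cars and Iars, at adjusted p from 0.0506 to 0.209. In the fit to all libraries these 10 log2 fold changes ran from 0.23 for Mthfd2 and 0.23 for Iars to 0.38 for Slc1a4, with Cars at 0.31, Nars at 0.29, Gars at 0.26, Pycr1 at 0.36, Slc3a2 at 0.31 and Slc7a1 at 0.29. The lower calls were on Slc7a3 (-1.04 ± 0.27), Cth (-0.41 ± 0.11), Farsa (-0.29 ± 0.06), Hars (-0.28 ± 0.06), Kars (-0.22 ± 0.06) and Rars (-0.21 ± 0.06). Without afatinib replicate 1 or without afatinib replicate 2 edgeR's test left 0 of them, with 6 genes lower at an unadjusted p under 0.05 in each.

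For several synthetases that rose with afatinib, the direct comparison did not separate the inhibitors. Yars differed by -0.01 ± 0.07 (adjusted p = 0.929), Lars by 0.08 ± 0.06 (0.377), Mars by 0.10 ± 0.07 (0.414) and Tars by 0.09 ± 0.07 (0.433), and none of these was called. Nor were Vars (-0.09 ± 0.07), Slc38a2 (0.19 ± 0.09), Slc1a5 (-0.11 ± 0.11) or Cbs (0.18 ± 0.27). A missed threshold does not show that the inhibitors act alike on them.

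Genes of the ATF4 response, both regulators and targets such as Trib3, moved with the inhibitors too, in a list of 18 such genes and stress kinases. With afatinib 14 were higher and 2 lower, with UO126 14 were higher and 1 lower, and with c-Fos 3 were higher and 6 lower. The shares over all tested genes were 21.2% and 21.5% with afatinib, 13.9% and 14.7% with UO126, and 21.5% and 20.7% with c-Fos, so the count of 3 higher is near the background. Atf4 itself stood at 335 and 335 CPM with the empty vector, 413 and 421 in DMSO, 544 and 515 in afatinib, 581 and 578 in UO126. Its order was empty vector, DMSO, afatinib and UO126, without overlap. Atf4 rose with c-Fos (log2 fold change 0.31 ± 0.06, adjusted p = 0.000588), with afatinib (log2 fold change 0.34 ± 0.06, adjusted p = 0.000279) and with UO126 (log2 fold change 0.47 ± 0.06, adjusted p = 4.7e-05), and the direct difference between inhibitors was -0.13 ± 0.06 (adjusted p = 0.144). Trib3, a pseudokinase, stood at 17.4 and 17.7 CPM with the empty vector, 15.6 and 16.2 in DMSO, 118 and 109 in afatinib, 54.1 and 56.5 in UO126. The afatinib libraries were the highest and were followed by UO126. Trib3 was 7.18-fold higher with afatinib (log2 fold change 2.84 ± 0.08, adjusted p = 1.1e-10) and 3.49-fold higher with UO126 (log2 fold change 1.80 ± 0.08, adjusted p = 1.86e-08). Chac1, which degrades glutathione, rose by 2.55 ± 0.07 and 1.67 ± 0.07, and Ddit3, which encodes CHOP, by 0.99 ± 0.07 and 1.05 ± 0.07. Atf5, Cebpb and Cebpg, for bZIP factors that can pair with ATF4, rose by 1.41, 1.11 and 0.68 with afatinib and by 0.74, 0.60 and 0.33 with UO126. Eif2s1, which encodes the alpha subunit of eIF2, was lower with afatinib (-0.56 ± 0.09) and UO126 (-0.36 ± 0.09). In the direct comparison 7 of the 18 were higher with afatinib and 1 lower, where 7.14% of all tested genes were higher and 7.14% lower. The count of 1 lower is near that background. Trib3 differed by 1.04 ± 0.07, Chac1 by 0.88 ± 0.07 and Atf5 by 0.68 ± 0.08, and Ddit3 was not called (-0.07 ± 0.07). Ddit4, a stress-induced inhibitor of mTORC1, fell with c-Fos (-1.45 ± 0.09) and was higher than DMSO with afatinib (1.17 ± 0.09) and UO126 (1.59 ± 0.09).

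Amino acid genes outside the 44 were read against the same shares over all tested genes: 21.2% higher and 21.5% lower with afatinib, 13.9% and 14.7% with UO126, 21.5% and 20.7% with c-Fos, and 7.14% in each direction for afatinib against UO126. Of 24 other amino acid and one-carbon enzymes tested, 3 were higher and 11 lower with afatinib, and 4 were higher and 3 lower with UO126. With c-Fos 6 were higher and 3 lower, led by Glud1, which encodes glutamate dehydrogenase (0.78 ± 0.06), and in the direct comparison 0 were higher with afatinib by edgeR's test (2 at an unadjusted p under 0.05 and 0 by DESeq2) and 4 lower. Mat2a, which makes S-adenosylmethionine, was lower with afatinib (-0.58 ± 0.07) and UO126 (-0.28 ± 0.06). Bcat2, the mitochondrial branched-chain aminotransferase, was higher with afatinib (0.45 ± 0.09). Of 17 other amino acid transporters tested, 6 were higher and 1 lower with afatinib, and 5 were higher and 2 lower with UO126. With c-Fos 2 were higher and 9 lower. Several of these counts lie near the background, among them the 6 enzymes higher with c-Fos and the 2 transporters lower with UO126. Slc16a10, a carrier of aromatic amino acids, rose by 0.91 ± 0.11 with afatinib, the lysosomal carrier gene Slc36a1 by 0.70 ± 0.08, the taurine carrier gene Slc6a6 by 0.56 ± 0.06, and the lysosomal gene Slc38a9, which acts in arginine sensing, by 0.46 ± 0.11. Against the empty vector, Slc1a1, a glutamate carrier gene, was higher with c-Fos (log2 fold change 2.10 ± 0.19, adjusted p = 1.45e-06), and Slc1a3, another one, was lower (-0.72 ± 0.11).

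**Figure D4:**
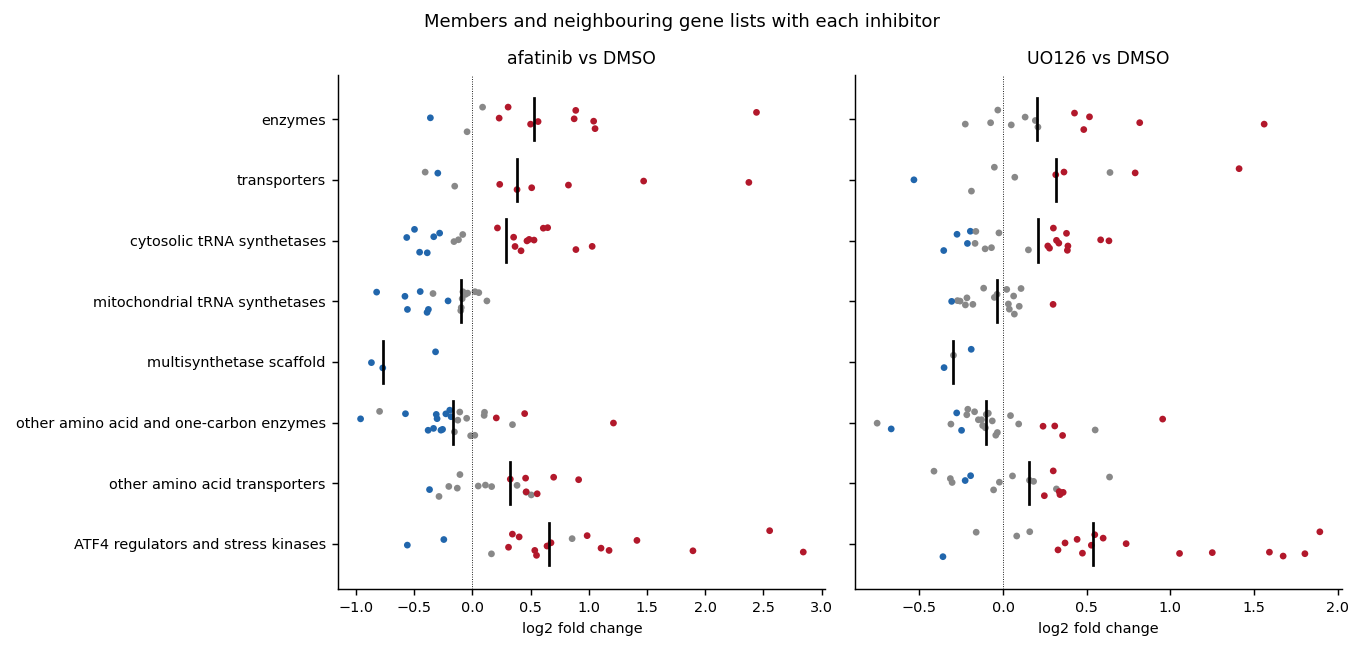
Log2 fold changes with afatinib (left) and UO126 (right) against DMSO, 1 point per tested gene, red for higher, blue for lower and grey for not called, with a black line at the median of each list. The cytosolic synthetases spread to both sides of 0, while 0 of 17 mitochondrial synthetases are called higher with afatinib.

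Compared with the empty vector, the group means fell on either side without a test. With DMSO 25 of the 43 genes had a mean above that of the empty vector and 18 below, and with either inhibitor 31 were above and 12 below. By role, with UO126 synthetases were 18 above and 2 below, enzymes 8 and 4, and transporters 4 and 5. With afatinib these were 14 and 6, 9 and 3, and 6 and 3. The same count over all tested genes was not made, so no excess can be read from these. Genes differed in how they reached their levels. Asns and Mthfd2 stood near the empty vector level in DMSO and above it with inhibitors. Vldlr and Slc38a2 fell with c-Fos and were near the empty vector level with afatinib. Rars and Kars rose with c-Fos and were also near it with afatinib. The same DMSO libraries stand in both steps, so opposite signs in them are not independent.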

How the data were processed

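ASZ001 cells were profiled by mRNA sequencing in 8 libraries. Total RNA was prepared by RNeasy and turned into Illumina TruSeq RNA libraries, per the labels' protocols. TopHat alignment was followed by HOMER, per the series design text. DESeq2 and the build mm9 are named, with no role, per the submitters' processing notes. The authors deposited estimated counts per gene symbol, not normalized, in multiples of 0.5. The entries whose symbols had become dates (26) were left out.

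Counts were rounded and fitted in R 4.3.3 with edgeR 4.0.16: genes filtered by expression (minimum count 10, minimum total 15), trimmed mean of M-values scaling, robust quasi-likelihood test on all 8 libraries, 4 residual degrees of freedom, two-sided, Benjamini-Hochberg adjustment over 12879 genes per comparison, call under 0.05. The biological coefficient of variation was 0.0596. The procedure was tested on simulated counts. Libraries of a group differed by more than counting noise (chi-square per degree of freedom 5.04 to 26.4), so none was 1 library deposited again. This does not show whether they came from separate cultures.

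The 44 genes and all lists were chosen with earlier results of these data known. The naming rule gave, per comparison and role, up to 8 called members with the largest change and up to 3 uncalled ones with the highest level, and up to 4 called genes per other list, plus Atf4 and Ddit3. Mthfd1, Vars2, Rars2, Hars2 and members described for their role were added after values were seen. Fos, Cebpb, Cebpg, Eif2s1, the UO126 values of Atf5 and Mat2a and the afatinib value of Ddit4 also lie outside the rule. Promoters and coordinates come from RefSeq (GRCm38.p6), overlaps from GENCODE M21, and no coordinate was converted from mm9. Alternatives were DESeq2 1.42.0 (size factors and Wald test), other count filters, only the compared libraries, no robust estimation, a stricter threshold, a replicate block and each library left out. The block with crossed numbers was added after seeing the data. Calls on genes outside the 44 that ended without a library are named only where that gene's value is given. The fits without a library were not read for Fos, Cebpb, Cebpg, Eif2s1 or the values of Atf5, Mat2a and Ddit4 listed above. Some lists' named genes are given as counts only, and some genes and 1 promoter match that the rules name are not reported here.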

Additional observations from a re-analysis of the deposited data

How the results depend on the processing

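For 205 gene results, 3323 alternative values were computed and 0 reversed. Of these 3097 kept their side of the threshold, 210 lost the call and 16 gained one. The 210 fell on 55 of the 205 gene results, which include results without a call to lose. The counts for afatinib against DMSO stayed within 1.5 times under every alternative run. At an adjusted p under 0.01 the count of genes higher with c-Fos fell from 13 to 7, lower with UO126 from 5 to 3, and lower with afatinib than UO126 from 6 to 2. Genes lower with UO126 were 3 by the DESeq2 Wald test and 3 in a fit to only the compared libraries. With each library left out in turn, c-Fos against the empty vector gave 7 to 16 higher and 7 to 11 lower, UO126 gave 2 to 6 lower, and afatinib against UO126 gave 11 to 22 higher and 0 to 5 lower. In these fits a group with 1 library is assumed to vary like the others.

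With the replicate number as a block, UO126 had 3 genes lower. The block gave 9 higher and 10 lower for c-Fos, 28 and 7 for afatinib, and 20 and 4 for afatinib against UO126. No label pairs libraries by number, and the correlation of deviations of same-numbered libraries was 0.12 for the empty vector and DMSO, -0.12 for the empty vector and afatinib, -0.21 for afatinib and UO126, and within 0.1 of 0 for the other pairs of groups. With the afatinib numbers crossed, a pairing added after seeing the data, 23 genes were higher and 6 lower than with UO126. With 2 libraries per group, the replicate spread rests on the 4 residual degrees of freedom shared by all groups.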
